A study of Mus musculus with 36 samples.

Results

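The RNA of offspring liver was described in 6 libraries, which were all the count columns of the liver table and make up 6 of the 36 samples of the series. The samples came from C57BL/6 wild-type male mice (C57BL/6N in the study's methods) kept on chow, whose fathers had been fed a high-fat diet (HFD) for 2 weeks before mating. Per the labels, 3 of the liver samples are of HFD tolerant and 3 of HFD intolerant offspring, terms that refer to glucose tolerance, but the column names hold only sequencing numbers and do not say which is which. The 6 libraries were therefore treated as 1 group and are called by those numbers, 13, 14, 15, 16, 23 and 24, and the contrast of tolerant with intolerant liver was not analysed here. The age of the mice at tissue collection is not given in the sources used here, and no source says whether each sample is 1 animal, so that p-values measure only the spread between these samples, which may be technical. Epididymal white adipose tissue (eWAT) and gastrocnemius muscle of such offspring, with 6 libraries each, served as the comparison, and their columns could not be divided by phenotype either.

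The liver is built mainly of hepatocytes, which make most plasma proteins, produce glucose in fasting, convert ammonia to urea, synthesise bile acids and clear drugs and hormones through cytochrome P450 enzymes. These tasks are zoned along the lobule: periportal hepatocytes carry much of the gluconeogenesis and ureagenesis, and pericentral ones glutamine synthesis and much of the xenobiotic metabolism. Many of the genes are driven by fasting, by the time of day, by growth hormone and by inflammation, so that they are known to differ between livers of like genotype.

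The libraries were made with the QuantSeq 3′ kit, which reads a short tag near the 3′ end of a polyadenylated RNA, so levels are given as CPM, each gene's counts scaled to a common library total, without division by transcript length. Total counts were 2552454, 2038532, 2225011, 2279651, 2347546 and 2036237 in libraries 13, 14, 15, 16, 23 and 24. Per-library values are given in that order throughout. For a gene listed at 0, as many as 3 counts remain possible, which is 1.18 CPM in the deepest library and 1.47 CPM in the shallowest by counting error alone. No library was a copy of another, the chi-square per degree of freedom being at least 8.08 over the 15 pairs. The table lists 54838 genes, 21484 of them with reads in some liver library. The 5897 with a mean of at least 10 CPM held 97.3% of all counts and are the genes described below.

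Hepatocyte markers dominated every library. All 11 genes of the hepatocyte list were above 10 CPM, together at 75332 to 95107 CPM (median 89554). Albumin (Alb), the main plasma protein, stood at 34096, 22488, 33699.9, 37792, 30615 and 20014 CPM, the lipoprotein Apoa1 at 8204, 6384, 9262, 9808, 8335 and 8162 CPM and the thyroxine carrier Ttr at 9071, 12866, 13013, 10276, 10881 and 14932 CPM. Alb was lowest in libraries 14 and 24, and Ttr was highest in 24, with no more than 1.89-fold between any pair of libraries for these 3 genes. Kupffer cell markers summed to 139 to 256 CPM (median 157) over 10 genes, with the highest sum in library 24. Sinusoidal endothelial markers summed to 415 to 583 CPM (median 480.0) and stellate cell and stromal markers to 437 to 522 CPM (median 479), and in the latter library 14 held no count of Col1a1 or Des. Cholangiocyte markers were carried by Spp1 and Sox9, while Krt19, Krt7, Epcam, Cldn7 and Cftr had at most 7 counts in a library. Lymphocyte markers summed to 2.60 to 15.3 CPM (median 8.22), none of the 10 reached 10 CPM, and Cd79a was at 0. Of 12 exocrine pancreas genes, 10 were at 0 and Pnlip had 1 count, whereas Cela1, an elastase gene also transcribed outside the pancreas, stood at 23.1, 34.4, 19.5, 24.3, 29.8 and 27 CPM.

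RNA of the other tissues sampled in the study was low but not evenly spread. The 7 skeletal muscle markers summed to 17.2, 34.9, 14.7, 23.5, 19 and 94.8 CPM, so library 24 lay above the other libraries. In that library the fast myosin gene Myh4 had 48 counts against 3 to 9 elsewhere, and the troponin gene Tnnt3 50 against 6 to 12. The adipocyte markers summed to 3.91, 5.73, 19.9, 20.05, 45.5 and 11.7 CPM, with Adipoq at 25 counts in library 23 and at 0 to 2 in the others. Cfd, the adipsin gene, moved likewise, with 47 counts in library 23 and 0 to 9 elsewhere. Lep was at 0, and Plin1 and Adig had 1 count each, both in library 23. Erythroid genes summed to 326 to 490.1 CPM (median 396), mostly the haemoglobin gene Hbb-bs, and the red cell membrane gene Slc4a1 was at 0. In such bulk samples fewer cells of a type and less RNA per cell cannot be told apart.

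The most abundant nuclear transcripts were those of secreted proteins and of fatty acid oxidation. The first of the 15 in order of mean CPM was Gm42418, at 53053 ± 25085 CPM (SD, n = 6), a gene model that overlaps a ribosomal RNA repeat, so that its counts cannot be told from ribosomal RNA. It was followed by Apoe, the apolipoprotein of remnant clearance, at 32272 ± 8283 CPM, Alb at 29784 ± 7035 CPM, the fetuin gene Ahsg at 15989 ± 2874 CPM and Cyp4a10, which hydroxylates fatty acids at their end, at 12248 ± 4937 CPM. Apoe was thus level with Alb within the spread of the libraries, and its order against Alb differed between them: Apoe was higher in libraries 14, 23 and 24 and Alb in 13, 15 and 16.

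The others of the 15 included Ttr, Apoa1, the methionine adenosyltransferase gene Mat1a, Cyp4a14, the iron carrier Trf, the fibrinogen chain Fgb, the serpin Serpina3k, Apoa2 and the antitrypsin gene Serpina1e, with means from 4805 ± 1494 CPM to 11839.8 ± 2146 CPM. Neighbours in this order overlapped in their values, except that the lowest value of Alb lay above the highest of Ahsg. Of the 15, none had a range of 4-fold, which 3.27% of all described genes reached. The widest were Gm42418 at 2.88-fold, Cyp4a10 at 2.79-fold and Serpina1e at 2.50-fold. Gm42418 was 1.62-fold without library 14 and Cyp4a10 1.72-fold without library 24. Cyp4a10 had 9249, 13697, 7704, 10993, 10378 and 21471 CPM, with library 24 the highest and 15 the lowest. Serpina1e, one of several near-identical antitrypsin copies whose reads the counting may have split, had 3722, 2721, 4493, 5999, 6816 and 5079 CPM, lowest in 14 and highest in 23. Fgb and Apoa2 were the steadiest of the 15, at 1.28-fold and 1.28-fold.

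**Figure D1:**
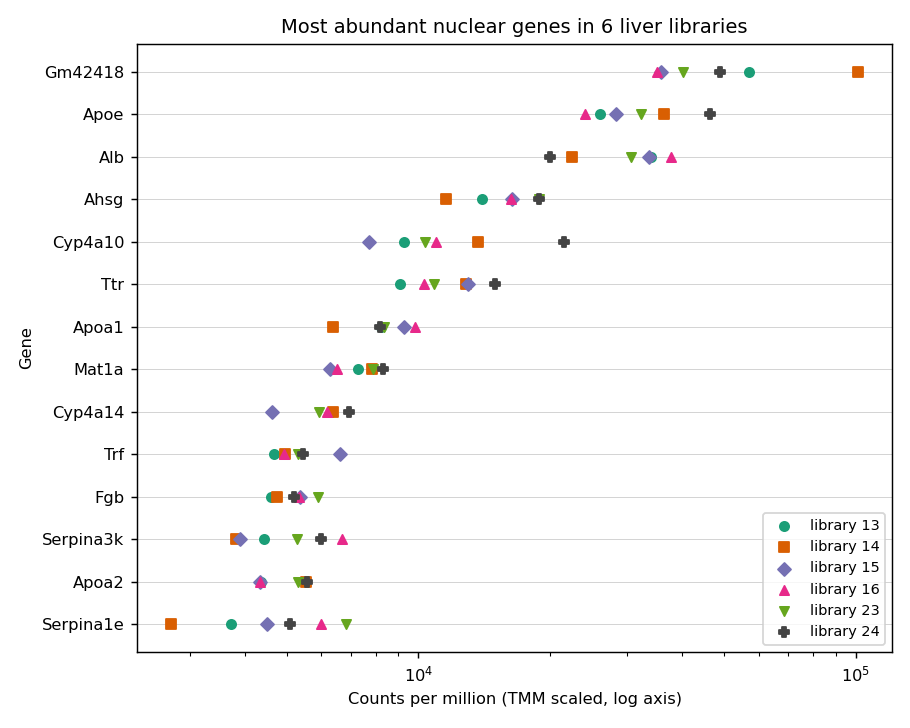
CPM of 14 of the 15 most abundant nuclear genes in the 6 liver libraries, on a log axis, with genes in order of their mean and 1 symbol per library. Gm42418 spans 2.88-fold, with library 14 at its upper end, while Fgb spans 1.28-fold.

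The 10 most abundant nuclear genes of liver held 18.8% ± 1.60 (SD, n = 6) of all counts, with a range of 17.5 to 21.5%. These 10 include Gm42418, whose counts cannot be told from ribosomal RNA and made up 3.61% (library 16) to 9.54% (library 14). Gm42418 averaged 53053 CPM in liver, 32468 CPM in eWAT and 29174 CPM in gastrocnemius. The shares were not computed without it, so they do not describe messenger RNA alone. The 10 most abundant of eWAT held 14.6% ± 2.96 there, 4.20 percentage points less (exact permutation test, two-sided, p = 0.00216; 6 against 6 libraries can give no smaller value). Those of gastrocnemius held 18.9% ± 3.87, and liver was not shown to differ from it (p = 0.924, exact permutation test). As a share of nuclear counts alone, liver had 24.8% ± 2.46 and gastrocnemius 29.9% ± 3.98 (p = 0.0260, exact permutation test), so the answer for muscle depended on the denominator.

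Genes encoded in mitochondrial DNA (mtDNA), which code for subunits of the respiratory chain and for the rRNAs and tRNAs that translate them, took a large share of every liver library. Their share was 27, 26.7, 24.2, 23.7, 21.7 and 22.1%, a mean of 24.2% ± 2.23 (SD, n = 6), highest in libraries 13 and 14. eWAT had 16.7% ± 1.09 with a highest value of 18.2%, below the lowest liver library, and gastrocnemius had 37.3% ± 5.38 with a lowest value of 29.8%, above the highest liver library. Liver exceeded eWAT by 7.55 percentage points and was lower than gastrocnemius, at -13.1 points (two-sided exact permutation tests, p = 0.00216 for each, the smallest possible). With the 2 mitochondrial rRNA genes left out, the shares were 12.2% in liver, 8.91% in eWAT and 25.8% in gastrocnemius, in the same order.

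Within the liver the mitochondrial rRNA and mRNA shares did not move together. The rRNAs mt-Rnr1 and mt-Rnr2 held 14.9, 16, 13, 9.78, 9.58 and 8.95% of the libraries, so libraries 13, 14 and 15 lay above 16, 23 and 24 without overlap. The mRNAs held 12.1, 10.7, 11.2, 13.9, 12.1 and 13.1%, with library 14 the lowest and 16 the highest. mt-Rnr2 alone had 9.77, 10.5, 8.57, 6.61, 6.0 and 5.52%, and mt-Nd4, a subunit of complex I, had 4.08, 3.65, 4.59, 6.21, 4.31 and 5.76%. mt-Nd2 and mt-Nd1, also of complex I, averaged 3.46% ± 0.424 and 2.55% ± 0.374. mt-Cytb, the mtDNA-encoded subunit of complex III, had 1.43, 0.613, 1.05, 1.38, 1.17 and 0.678%, low in libraries 14 and 24, and mt-Nd5 averaged 0.243%. mt-Co1, the catalytic subunit of complex IV, averaged only 0.110% ± 0.0159. mt-Nd6, the single protein gene of the light strand, was the least abundant protein gene above 10 CPM and the widest of the 15 mtDNA genes described, with 12.5, 14.6, 2.16, 5.12, 17.8 and 19.9 CPM and a range of 6.81-fold, and 3.46-fold without library 15.

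**Figure D2:**
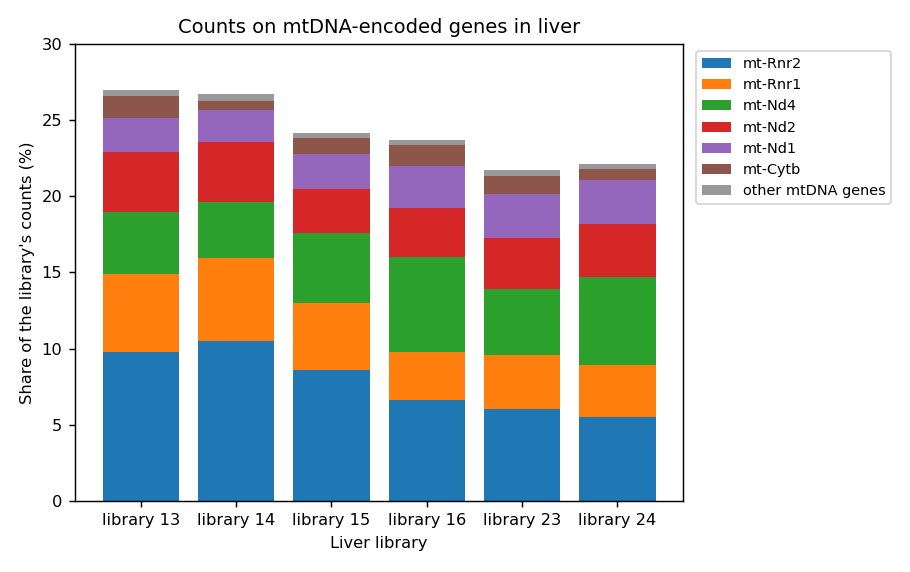
Share of each liver library's counts on mtDNA-encoded genes, as stacked bars for the 6 most abundant genes and the remainder. Bars total 21.7 to 27%, and the lower 2 segments, the rRNAs, are larger in libraries 13, 14 and 15 than in 16, 23 and 24.

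A stretch of the mitochondrial genome had no counts at all. All 9 genes from mt-Ts1 to mt-Nd3 (mtDNA positions 6870 to 9806, GRCm38) were listed at 0 in the 6 liver libraries: mt-Co2, mt-Co3, mt-Atp6, mt-Atp8, mt-Nd3 and 4 tRNA genes. The next genes, mt-Tr and mt-Nd4l, had 14 counts and 1 count in all, against 640596 for mt-Nd4 beside them. mt-Co2, mt-Co3, mt-Atp6 and mt-Atp8 were likewise at 0 in all libraries of eWAT and gastrocnemius. These genes are transcribed on the same precursor as their neighbours and are used by every cell with mitochondria, so a value of 0 is not read as absence of the RNA. The mtDNA shares above therefore hold nothing from these 4 genes in any tissue. How reads that match more than 1 place were counted is not given in the sources used here, and its part in the zeros was not tested. Of the 22 tRNA genes, those above 10 CPM were mt-Tm at 81.1 ± 9.50 CPM, mt-Tq at 77.5 ± 32.3 CPM, mt-Tp at 59.8 ± 21 CPM, mt-Ti, mt-Tv and mt-Tl1, and all tRNAs together held 0.0283 to 0.0340% of a library. mt-Tq had 44.2, 109, 64, 44.8, 82.3 and 120.2 CPM, highest in libraries 14 and 24, whereas mt-Tm ranged over 1.35-fold.

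The libraries resembled each other closely over most genes. Pearson's r of log2 CPM across the described genes, which are not independent replicates, was 0.903 (libraries 13 and 24) to 0.963 (16 and 23). The median gene differed by 1.79-fold between its highest and its lowest library, and its SD of log2 CPM was 0.32, against 0.18 that counting error alone gives. A range of at least 4-fold, on the log2 scale with a prior count of 2, was reached by 193 of 5897 genes, a background of 3.27%. Of those, 18 were above 200 CPM, among 481 such genes in all. The count was 103 without library 24 and 148 to 175 without any other, and 35 genes kept 4-fold whichever library was left out.

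The same threshold was passed by 7.33% of 8364 genes in eWAT and by 7.8% of 5394 in gastrocnemius. Gastrocnemius holds a library of only 369772 counts, without which its share was 2.51%. Of the liver's wide-ranging genes, 131 were above 10 CPM in eWAT and 21 of those ranged over 4-fold there too, 16%. In gastrocnemius these numbers were 90 and 16, or 88 and 8 without the shallow library. The tissues were not tested against each other for spread, since their depths differ.

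Libraries 14 and 24 stood apart from the rest, though not always in the same way. They had the lowest totals and the fewest genes with a count (13977 and 14536, against 15358 to 15525 in the others). The first principal component held 39.7% of the variance of gene-centred log2 CPM and had weights of 0.75 on library 24, 0.32 on 14 and -0.44 on 13. The second held 23.4%, with library 14 at 0.72 and 24 at -0.38, and the third 16.1%, led by library 15 (0.83). Of the 193 wide-ranging genes, 73 had 14 and 24 as their lowest pair, 37.8%, against 12.8% of all described genes.

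The libraries also differed with the base composition of the counted end. Across 5894 genes, a library's deviation from the gene's mean ran with the GC content of the last 100 transcript bases at r = -0.258, 0.0948, -0.158, -0.167, 0.0106 and 0.335, a description across genes that share these libraries. Genes of the highest GC bin (median 55%) lay 0.24 above their mean in library 24 and -0.13 in library 15 on the log2 scale, and those of the lowest bin (median 21%) lay -0.18 in library 24 and 0.15 in 13. With that trend removed from each library, 164 genes ranged over 4-fold, 150 of them among the first 193. The part of depth, base composition or RNA quality in the single results below was not tested beyond such values.

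**Figure D3:**
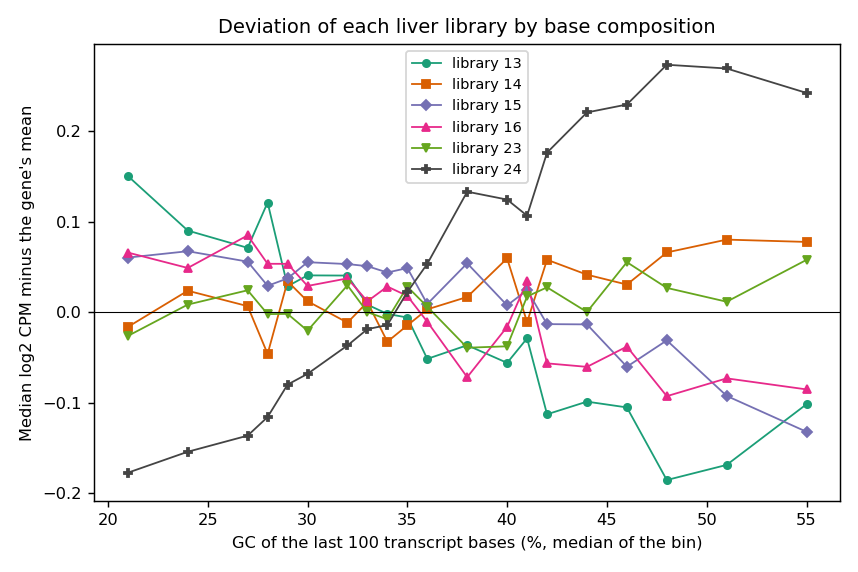
Median deviation of each liver library from the gene's mean log2 CPM, in 20 bins of the GC content of the last 100 transcript bases. Library 24 rises from -0.18 to 0.24, while libraries 13, 15 and 16 fall and 14 and 23 lie between.

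The largest SDs of all belonged to the serum amyloid genes Saa2 and Saa1, which code for acute phase apolipoproteins that the liver secretes in inflammation. Saa1 (ENSMUSG00000074115, chr7:46740497-46742980, GRCm38) had 65.8, 55.7, 70.5, 937, 3728 and 736 CPM, and Saa2 (ENSMUSG00000057465, chr7:46751790-46754313) had 17.2, 15.6, 19.5, 325, 1376 and 127 CPM. Both were highest in library 23, intermediate in 16 and 24 and low in 13, 14 and 15. Their ranges were 65.9-fold and 83.4-fold, and without library 23 they were still 17 and 20.2-fold. The SDs of log2 CPM were 2.55 and 2.65, against 0.09 and 0.17 from counting. The genes are near-identical neighbours on chromosome 7, so the split of reads between them is uncertain.

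Since both moved together, the windows from 250 to 51 bases before their RefSeq starts are shown, as RefSeq gives them on the strand of the gene (GRCm38.p6, chr7:46743031-46743230 on the minus strand for Saa1 and chr7:46751583-46751782 on the plus strand for Saa2). Capitals mark TTGCNCAA, the letters of a C/EBP site, searched on both strands.
Saa1: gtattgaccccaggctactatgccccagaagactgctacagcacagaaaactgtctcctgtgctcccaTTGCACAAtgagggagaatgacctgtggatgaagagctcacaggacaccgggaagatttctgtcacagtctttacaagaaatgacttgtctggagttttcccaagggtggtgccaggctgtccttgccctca
Saa2: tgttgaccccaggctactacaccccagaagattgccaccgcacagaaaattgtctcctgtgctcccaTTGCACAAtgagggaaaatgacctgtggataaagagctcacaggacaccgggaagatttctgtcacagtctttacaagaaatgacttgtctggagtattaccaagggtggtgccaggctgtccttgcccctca
The windows were identical at 188 of 199 aligned bases, 94.5%. TTGCNCAA stood once in each. Among 32851 promoter windows of the same length, 2.26% held it. A match of letters is a description and not a bound site.

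Other acute phase genes varied far less. Of 20 listed genes 16 were above 10 CPM, with a median range of 2.03-fold. Of these 3 ranged over 4-fold, Saa1, Saa2 and the protease inhibitor Serpina3n, 18.8% against 3.27% of all described genes. Serpina3n had 160.5, 95.3, 153, 444, 248 and 222 CPM, highest in library 16 and lowest in 14, and 2.69-fold without library 16. The fibrinogen chain Fgb ranged over only 1.28-fold, and the haem carrier Hpx, at 2223, 1649, 3429.9, 2597, 2998 and 3034 CPM, was highest in library 15. The list's score, the mean over its members of log2 CPM minus the gene's mean, was -0.40, -0.64, -0.25, 0.42, 0.75 and 0.12, a range of 1.39, to which Saa1 and Saa2 contributed much: without them the other 14 gave a range of 0.70, a value added after seeing the data. For 6 of the 16 genes, Saa1 and Saa2 among them, libraries 13, 14 and 15 were the lowest 3, as for 6.17% of all described genes. Library 14 was lowest for 11 of the 16, as for 17.8% of all described genes. Library 15 was highest for 5, as for 14.3% of all described genes.

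The metallothioneins Mt1 and Mt2, small proteins that bind zinc and copper and are induced by metals, glucocorticoids and cytokines, had the same low libraries. Mt1 had 452, 710.5, 645, 1207, 1349 and 1524 CPM and Mt2 158, 209, 262, 539, 656 and 716 CPM. Both were lowest in library 13 and highest in 24, with 13, 14 and 15 below 16, 23 and 24 without overlap. Ranges were 3.37-fold and 4.51-fold. With GC removed they were 2.78-fold and 4.19-fold, and Mt2 was 3.41-fold without library 13. Fgl1, which codes for a secreted hepatocyte protein of the fibrinogen family, was also wide at 265, 96.4, 319, 614, 547 and 232 CPM, lowest in 14, and 2.64-fold without library 14.

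**Figure D4:**
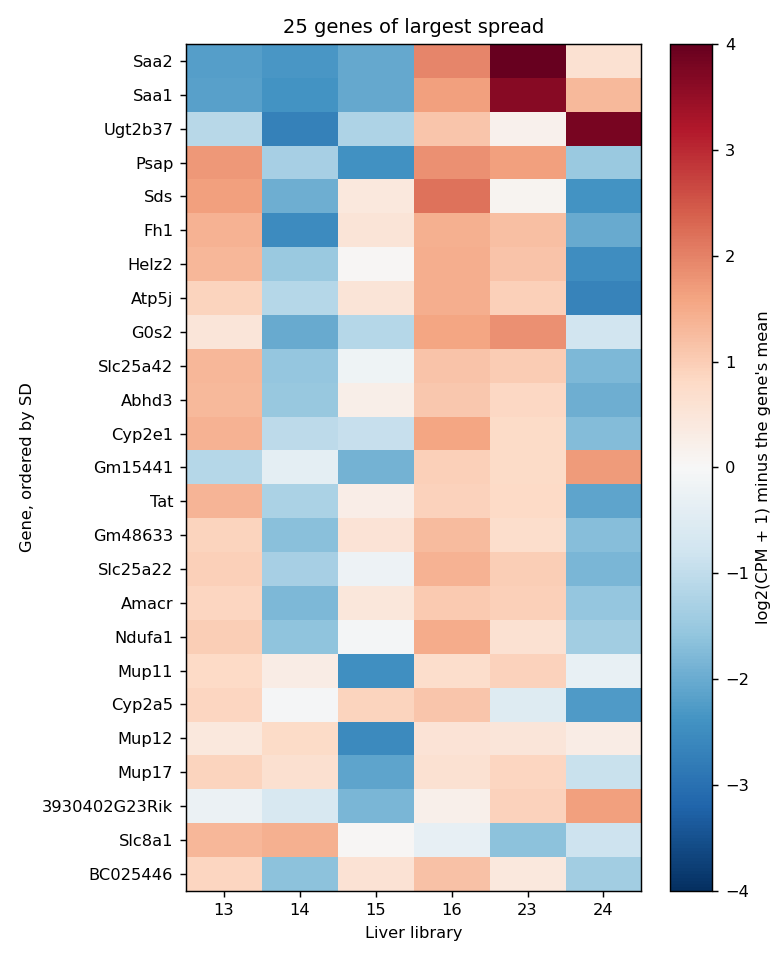
Heat map of log2(CPM + 1) minus the gene's mean for the 25 genes of largest SD above 10 CPM, in the 6 liver libraries. Saa1 and Saa2 are high in library 23, most of the middle rows are low in 14 and 24, and the Mup genes are low in 15.

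A large set of wide-ranging genes was low in libraries 14 and 24, which had the lowest totals. Of the 25 genes of largest spread, 13 had this pair lowest, 52%. That compares with 37.8% of all wide-ranging genes and 12.8% of all described genes, and the part of depth was not tested. Among the 13 was Fh1, the fumarase of the citric acid cycle, with 139.7, 8.33, 76.1, 142, 123 and 12.2 CPM. Another was Atp5j, a subunit of ATP synthase, with 28.6, 6.25, 22.1, 43.5, 30.2 and 1.53 CPM. Tat, the first enzyme of tyrosine breakdown and a target of glucocorticoids, had 365, 58.3, 169, 270.0, 245 and 32.1 CPM. For all 3, libraries 13, 16 and 23 were the highest and 15 lay between. Ranges were 15.5-fold, 18.4-fold and 11.1-fold, and at least 10.9, 6.38 and 6.39-fold whichever library was left out.

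The other 10 with this lowest pair were of various functions, and Sds and Cyp2e1 among them are described with their lists. The mitochondrial carriers Slc25a42, for coenzyme A, and Slc25a22, for glutamate, ranged over 9.0-fold and 9.53-fold. Amacr, a racemase of branched-chain and bile acid precursors, ranged over 7.36-fold with 84.2, 12.5, 64.4, 97.7, 91.5 and 15.3 CPM, and the complex I subunit Ndufa1 over 8.77-fold. Helz2, Abhd3, Gm48633 and BC025446 followed with 16.8-fold, 9.94-fold, 8.01-fold and 7.18-fold, Helz2 being 8.10-fold without library 24. Several are of low abundance: Ndufa1 had 17.6, 2.08, 7.78, 25.2, 13.2 and 2.55 CPM. With GC removed Fh1 ranged over 14.4-fold, Atp5j over 17.5-fold and Tat over 8.83-fold.

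Genes of glucose production and amino acid breakdown often had the same low pair. Of 11 genes of gluconeogenesis and the insulin response, 2 ranged over 4-fold, Tat and Pck1, 18.2% against 3.27% of all described genes. Libraries 14 and 24 were the lowest pair for 6 of the 11, as for 12.8% of all described genes. Pck1, which controls the entry into gluconeogenesis, had 3238, 1134, 1868, 3466, 2848 and 647 CPM, a range of 5.35-fold, or 3.13-fold without library 24. Irs2, an insulin receptor substrate, had 68.5, 25.5, 42.4, 53.3, 82.3 and 48.9 CPM, and the receptor gene Insr ranged over only 1.29-fold. The list score was 0.37, -0.44, 0.15, 0.13, 0.27 and -0.48, so libraries 14 and 24 lay below the other 4.

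Of 16 genes of the urea cycle and amino acid catabolism, 3 were wide, 18.8% against 3.27% of all described genes. Lists share wide members, so their shares are not separate results. Cps1 and Sds were also in the periportal list, and Pck1 was in the periportal and gluconeogenesis lists. Tat was in the hepatocyte, gluconeogenesis and glucocorticoid lists. Libraries 14 and 24 were the lowest pair for 7 of the 16, as for 12.8% of all described genes. Cps1, the entry enzyme of the urea cycle, had 1774, 587, 1058, 1364, 1068 and 430.5 CPM. Cth, which makes cysteine from cystathionine, had 358, 116, 229.6, 238, 299 and 87.1 CPM, and Sds, a serine dehydratase, 23.9, 1.04, 9.51, 34.5, 7.45 and 0.509 CPM. All 3 were lowest in library 24 and next lowest in 14. Ranges were 4.11-fold, 4.08-fold and 25.4-fold, while the alanine aminotransferase Gpt ranged over 1.26-fold. Leaving out library 24 brought Cps1 and Cth to 3.12 and 3.17-fold, and removing GC to 3.28-fold and 3.25-fold, under the threshold. Bhmt, a methyltransferase of homocysteine, was lowest in library 24, with 863, 296, 374, 505, 396 and 94.8 CPM, and 3.01-fold without library 24.

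Zonation markers moved differently from library to library. The periportal score was 0.33, -0.36, 0.37, 0.31, -0.07 and -0.59 and the pericentral score 0.29, 0.09, -0.45, 0.09, 0.30 and -0.32. Library 24 was low in both, 14 in the periportal only, and 15 was the highest in the periportal and the lowest in the pericentral score. Glul, the glutamine synthetase of the last hepatocytes before the central vein, had 643, 949, 286, 659, 634 and 677 CPM, lower in library 15 than in any other, with a gap to the next library that was 0.664 of the whole range. Cyp2e1, which oxidises ethanol and ketones, had 321, 58.9, 64.4, 366, 208 and 36.7 CPM, low in 14, 15 and 24 and still 6.30-fold without library 24.

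The major urinary protein genes, pheromone carriers that growth hormone pulses drive in male liver, were low in library 15. Of 49 genes and pseudogenes 16 were above 10 CPM, with a median range of 3.59-fold. Of these 7 ranged over 4-fold, 43.8% against 3.27% of all described genes. Library 15 was lowest for 15 of the 16, as for 14.3% of all described genes. Mup11 had 5309.9, 3769.5, 556, 4984, 5823 and 2487 CPM and Mup12 1763, 2233, 221, 1906, 1837 and 1610.3 CPM. Mup17 had 1220.1, 1029.8, 150.5, 1007, 1191 and 357 CPM, low also in library 24, and Mup1 210.2, 491, 47.6, 191, 130.3 and 224 CPM, high in 14. Ranges were 10.5-fold, 10.1-fold, 8.07-fold and 10.2-fold. Without library 15 they were 2.37-fold, 1.35-fold, 3.43-fold and 3.60-fold. The copies are near-identical, so the split of reads between them is uncertain, and the 1 gene lowest in another library was Mup20, in 24. Mup3, at 3287, 2909, 1984, 3344, 2732 and 2127 CPM, was also lowest in 15, with a range of 1.69-fold. The list score was 0.43, 0.74, -1.21, 0.27, -0.03 and -0.20.

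The list of male-biased genes had a smaller median range than the Mup list. Of 14 listed genes 12 were above 10 CPM, with a median range of 2.64-fold. None of the 12 ranged over 4-fold, and 3.27% of all described genes did, so nothing is read from that count. Library 15 was lowest for 5, as for 14.3% of all described genes. Cyp2d9, a male-biased steroid hydroxylase, had 1226, 1755, 555, 1106, 1391 and 1816 CPM, with 15 lowest. Selenbp2 ranged over 3.94-fold, Mup20, the pheromone darcin, over 3.48-fold, and the anion transporter Slco1a1 over 1.35-fold. Of 16 female-biased genes 2 were above 10 CPM, Cyp17a1 at 34.1, 37, 57.5, 20.5, 31.4 and 25.5 CPM and Acot3 at 45, 66.2, 56.2, 78.1, 33.9 and 70.3 CPM.

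Among 39 cytochrome P450 genes above 10 CPM, 5 ranged over 4-fold, 12.8% against 3.27% of all described genes. The median range of the list was 2.18-fold, and its score moved by 0.27 only. Cyp2c70, which makes the muricholic acids of mouse bile, had 101, 90.1, 49.7, 329, 211 and 294 CPM, lowest in 15, and 3.72-fold without library 15. Cyp2a5, a coumarin hydroxylase, had 92.4, 47.9, 92.5, 108, 34.3 and 9.68 CPM, lowest in 24, and 3.05-fold without library 24. Of 18 glutathione transferase and UDP-glucuronosyltransferase genes 2 were wide, 11.1% against 3.27% of all described genes. Ugt2b37 had 1.96, 0, 1.73, 12.8, 6.21 and 88.1 CPM, so that library 24 stood above the other 5 and library 14 held no count, and its range was still 15.8-fold without library 24. Gsta2 had 29, 18.8, 29.4, 9.38, 10.8 and 4.08 CPM, lowest in 24, and 2.98-fold without library 24. Cyp4v3 and Ugt2b5 ranged over 1.20-fold and 1.07-fold.

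Targets of PPARalpha, the fatty acid receptor of the fasting liver, were led by library 24. Of 14 described genes 8 were highest there, as 27.1% of all described genes were. A 4-fold range was reached by 3, 21.4% against 3.27% of all described genes. Acaa1b, the peroxisomal thiolase, had 1038, 1943, 1725, 2090.4, 1666 and 4583 CPM. Cyp4a31 had 137, 227, 105, 254, 182 and 653 CPM, and the acyl-CoA thioesterase Acot2 37.6, 80.7, 82.1, 123, 84.4 and 168 CPM. Library 24 was highest for these 3 and library 13 or 15 lowest. Their ranges were 4.41-fold, 6.14-fold and 4.38-fold, and each fell under 4-fold on leaving out 1 library, the lowest values being Acaa1b 2.0-fold (without 24), Cyp4a31 2.38-fold (without 24) and Acot2 2.06-fold (without 13). With GC removed Acaa1b ranged over 3.50-fold. Acadm, of mitochondrial beta-oxidation, ranged over 1.23-fold. The score of the list was -0.29, -0.04, -0.24, 0.15, -0.03 and 0.46.

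Genes of the lipid droplet differed by member. G0s2, which inhibits the lipase of the droplet, had 157, 27.1, 50.6, 337, 402 and 65.2 CPM, with libraries 16 and 23 high and 14, 15 and 24 low, a range of 14.4-fold, or 7.83-fold without library 14. Cidec, which fuses droplets, had 19.6, 18.8, 16, 35.4, 34.3 and 76.4 CPM, highest in 24, and Plin5, a droplet coat protein of oxidative tissue, 92, 129.7, 110.3, 63.1, 82.8 and 161 CPM. Fabp4, a fatty acid carrier of adipocytes and macrophages, had 3.52, 4.17, 14.3, 19.6, 14.1 and 11.2 CPM. On leaving out a library the ranges were as low as Cidec 2.13-fold (without 24) and Fabp4 3.43-fold (without 16). The sum of adipocyte markers was highest in library 23, where Fabp4 was not, and their part in Fabp4 was not tested.

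Of 10 lipogenic and 10 cholesterol genes described none ranged over 4-fold. As only 3.27% of all described genes did, nothing is read from these counts. The 10 lipogenic genes had a median range of 1.93-fold and a score range of 0.29. The median range of the cholesterol genes was 1.91-fold, against 1.79-fold over all described genes. Scd1, the desaturase that makes oleate, varied most, with 1510.2, 3942, 3258, 1213, 2339 and 1905 CPM, highest in 14 and lowest in 16. Acaca ranged over 2.46-fold, or 1.64-fold without library 24, and Pklr over 2.38-fold. Of the 10 cholesterol genes Sqle had 12.1, 6.77, 7.78, 17.9, 19 and 14.8 CPM, low in 14 and 15, and Sc5d ranged over 1.21-fold. Among 11 bile acid genes Cyp7a1, the rate-limiting enzyme, was the exception with 16.4, 26, 22.1, 51.2, 10.3 and 25 CPM and 4.64-fold. It was highest in library 16 and lowest in 23, and 2.31-fold without library 16. Cyp8b1 had 849, 1204, 729, 917, 1044 and 1905 CPM.

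Clock genes put library 24 at the edge of both list scores. Arntl, the activator Bmal1, had 22.7, 13, 16.4, 13.6, 16.6 and 4.58 CPM, lowest in 24, and Nr1d1, the repressor Rev-erb alpha of the opposite phase, had 19.6, 32.8, 15.1, 22.6, 46.8 and 79.98 CPM, highest in 24. Their ranges were 4.31-fold and 5.05-fold, or 1.75 and 3.0-fold without library 24. With GC removed they were 3.43-fold and 3.93-fold, under the threshold. Of the 3 activator-phase genes described 2 were lowest in library 24, whereas Nfil3 was highest there, at 28.5 CPM. Clock and Nfil3 ranged over 1.45-fold and 1.21-fold, and Nr1d2 and Hlf over 2.04-fold and 1.37-fold. The score of the 7 repressor-phase genes was -0.14, -0.13, -0.28, 0.10, 0.01 and 0.45, and that of the 3 activator-phase genes 0.35, -0.02, 0.07, 0.04, 0.06 and -0.51. The hour of tissue collection is not given in the sources used here.

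Immediate early genes, which respond within minutes to handling and growth factors, did not share a highest library. Library 14 was lowest for 4 of 7, as for 17.8% of all described genes, and had the lowest score of the list, -0.40. Egr1 had 34.8, 45.3, 92.1, 26.9, 24.4 and 18.3 CPM, highest in 15, whereas Dusp1 had 36.4, 14.1, 20.3, 62.3, 74.5 and 34.6 CPM and Zfp36 92.8, 30.7, 83, 107, 76.6 and 64.2 CPM, both lowest in 14. Of 7 genes 2 ranged over 4-fold, Egr1 and Dusp1, 28.6% against 3.27% of all described genes. Both lost that on leaving out a library, at Egr1 2.34-fold (without 15) and Dusp1 3.56-fold (without 14). Among 10 glucocorticoid targets 4 ranged over 4-fold, 40% against 3.27% of all described genes, namely Tat, Mt2, Gadd45g and Cdkn1a. Gadd45g had 46.6, 25, 115, 53.7, 144 and 160.0 CPM, and Cdkn1a, an inhibitor of the cell cycle, 50.1, 39.1, 31.1, 15.4, 25.7 and 8.15 CPM. Gadd45g was highest and Cdkn1a lowest in library 24, and they too fell under 4-fold, at Gadd45g 3.39-fold (without 14) and Cdkn1a 3.17-fold (without 24). Per1 ranged over 1.95-fold.

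Median ranges were 1.80-fold in the heat shock list, 2.12-fold in the unfolded protein response, 1.81-fold in the interferon response and 1.94-fold among MHC genes, none below the 1.79-fold of all described genes. Of 8 heat shock genes only Hspa1b ranged over 4-fold, 12.5% against 3.27% of all described genes. It had 19.96, 12, 19.5, 13.6, 8.28 and 2.55 CPM, and ranged over 2.27-fold without library 24. Of 9 genes of the unfolded protein response only Manf, an endoplasmic reticulum protein, ranged over 4-fold, 11.1%. Manf had 33.3, 25.5, 30.7, 41.8, 38.9 and 5.09 CPM, with library 24 below the rest, and ranged over 1.66-fold without library 24. Herpud1 had 444, 543, 449, 298, 289 and 212 CPM. Rsad2, an interferon-induced antiviral gene, had 65.4, 62.5, 137, 53.3, 109 and 68.8 CPM, and none of the 3 interferon genes described was wide. Of 12 genes of cell division only Ccnd1 was above 10 CPM. Of 6 MHC genes none was wide, H2-Q10, a secreted class I molecule of the liver, ranging over 1.24-fold. Since only 3.27% of all described genes were wide, nothing is read from the lack of them in the interferon and MHC lists.

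Of 30 described marker genes of other liver cells and of red cells, 5 ranged over 4-fold (3.27% over all described genes), with means of 12.2 to 60.5 CPM. Adgre1, the macrophage antigen F4/80, had 15.3, 3.13, 13.8, 12.4, 9.52 and 18.8 CPM, lowest in 14 and highest in 24. The complement genes C1qa and C1qb were also highest in 24, at 43.3 and 40.8 CPM. C1qc of the same list was not, with 44, 14, 28, 41, 37 and 21 counts. With GC removed C1qa and C1qb ranged over 2.02-fold and 2.51-fold, against 2.74-fold and 3.40-fold before. Of 8 described Kupffer cell genes 6 were highest in library 24, as 27.1% of all described genes were. Lyve1 had 20.7, 4.17, 23.8, 30.7, 9.93 and 11.2 CPM and Col1a2 12.9, 5.21, 24.2, 15.4, 22.3 and 10.7 CPM, both lowest in 14. Spp1, which bile ducts and macrophages make, had 50.5, 38, 28.1, 63.1, 56.7 and 126 CPM, highest in 24. Hba-a1 had 28.2, 26.6, 5.19, 7.68, 15.7 and 8.15 CPM, but its near-identical copy Hba-a2 ranged over only 2.0-fold. None of these ranges held at 4-fold on leaving out a library: the lowest values were Adgre1 1.90-fold (without 14), Lyve1 2.93-fold (without 14), Col1a2 2.17-fold (without 14), Spp1 2.19-fold (without 24) and Hba-a1 3.42-fold (without 15).

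The median range of housekeeping genes was 1.69-fold for nuclear genes of oxidative phosphorylation and 2.03-fold for ribosomal protein genes, against 1.79-fold over all described genes. Of 69 nuclear genes of oxidative phosphorylation 3 ranged over 4-fold, 4.35%, near the 3.27% of all described genes. Nothing about the list is read from that count. These 3, Atp5j, Ndufa1 and Ndufb1-ps, were all low in 14 and 24, Ndufb1-ps at 92.8, 37, 79.1, 105, 103 and 23.9 CPM and 2.87-fold without library 24. The list score was 0.00, -0.21, 0.06, 0.15, 0.00 and 0.01. Of 30 genes and pseudogenes with ribosomal protein symbols 3 were wide, 10% against 3.27% of all described genes. They were Rps9 and the pseudogenes Rpl31-ps8 and Rpl27a-ps2, all under 15 CPM on average. Without 1 library they fell to Rps9 1.83-fold (without 14), Rpl31-ps8 2.71-fold (without 14) and Rpl27a-ps2 1.95-fold (without 13). Of the 30 genes 14 were lowest in library 14, as 17.8% of all described genes were. Psap, a lysosomal saposin precursor used by most cells, was among the 25 widest with 55.6, 5.73, 2.16, 59.7, 51.7 and 5.09 CPM. It was low in 14, 15 and 24, and 10.1-fold without library 15. The remaining members of the 25 were Gm15441 with 4.31, 7.81, 2.16, 21.8, 18.6 and 37.2 CPM and 3930402G23Rik with 8.61, 6.25, 2.16, 11.9, 20.3 and 34.1 CPM, both highest in 24 and lowest in 15, and the sodium-calcium exchanger Slc8a1 with 39.9, 42.7, 15.6, 11.9, 4.14 and 8.15 CPM, lowest in 23. Leaving out a library brought them to as low as Gm15441 7.29-fold (without 15), 3930402G23Rik 5.02-fold (without 15) and Slc8a1 4.69-fold (without 23). Gm26917, a GC-rich noncoding gene above 200 CPM, had 241, 362, 50.2, 184, 352 and 169 CPM, lowest in 15, and 2.11-fold without library 15. It lies just before Gm42418 on the same strand (chr17:39843013-39846341 and chr17:39846958-39848788). Whether its counts can be told from ribosomal RNA was not tested.

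**Figure D5:**
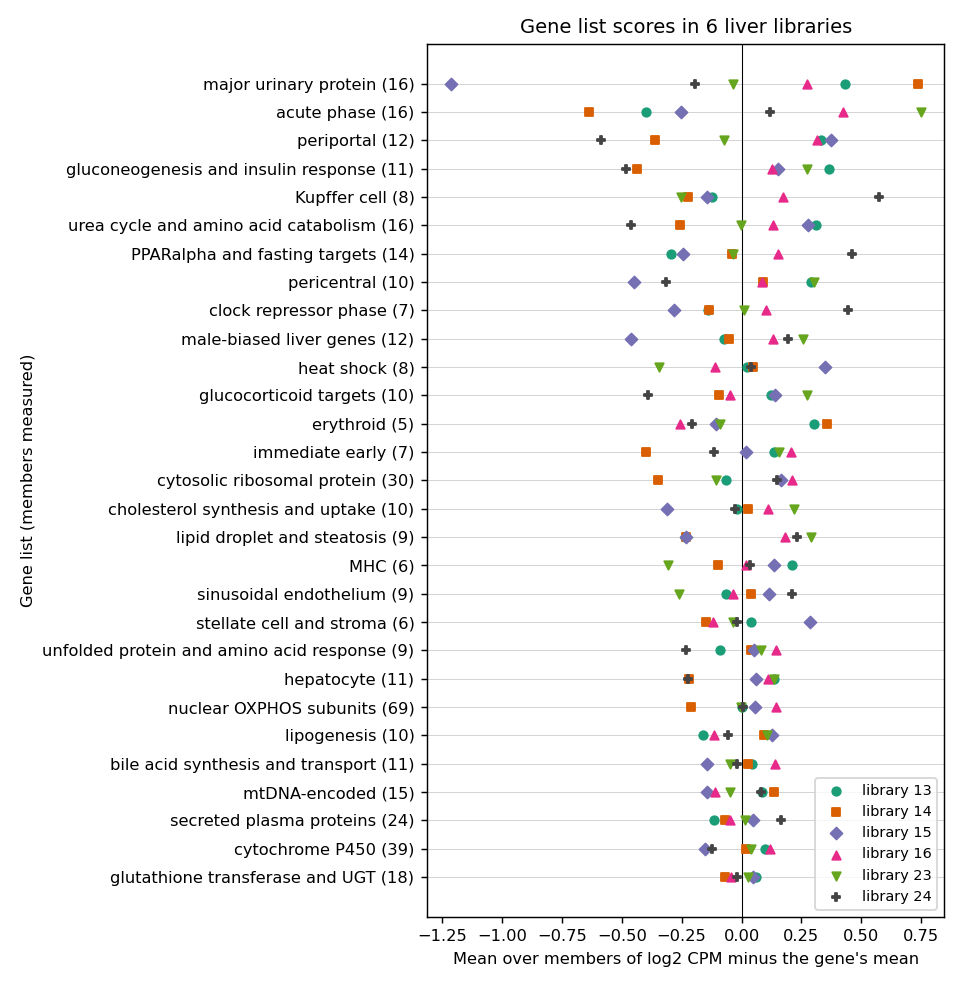
Scores of the gene lists with at least 5 described members (their number in brackets) in the 6 liver libraries, each the mean over members of log2 CPM minus the gene's mean. The major urinary protein score spans 1.95 with library 15 at its low end, the acute phase score 1.39 (0.70 without Saa1 and Saa2) and the glutathione transferase and UGT score 0.13.

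The 5 steadiest genes above 200 CPM had ranges of 1.07 to 1.15-fold. Rbp4, the retinol carrier of plasma, had 3503, 3379, 3364, 3302, 3250.5 and 3428 CPM, with an SD of 0.04 on the log2 scale against 0.02 from counting. Ugt2b5, a glucuronosyltransferase, had 329.6, 354, 337, 341, 354 and 334 CPM, and its SD of 0.04 was under the 0.05 of counting. The transcription factors Nfib and Onecut2 had SDs of 0.06 and 0.07, against 0.05 and 0.06 from counting, and Gstz1, of tyrosine breakdown, 0.07 against 0.04. In the plasma protein list none of the 24 genes ranged over 4-fold, against 3.27% of all described genes, and nothing is read from that count. The list's median range was 1.64-fold. Apoa4, of intestinal and fatty liver lipoproteins, was its widest at 646, 553, 665, 949.9, 1016 and 1679 CPM, highest in library 24. Its range was 3.03-fold, or 1.91-fold without library 24. Apoc4 followed at 2.11-fold, or 1.39-fold without library 24.

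Liver was compared with the other tissues in 1 fit over 18 libraries (edgeR quasi-likelihood test of liver against the mean of eWAT and gastrocnemius, two-sided, Benjamini-Hochberg adjusted p under 0.05). Of 10851 genes tested 3436 were higher in liver, 31.7%, and 3510 lower, 32.3%. Of the 15 most abundant genes 15 were higher in liver, a choice by liver level that favours this outcome (all but Gm42418 also without library 14 and with library totals), from Gm42418 (log2 fold change 1.24, SE 0.42, adjusted p = 0.0125) and Apoe (log2 fold change 5.28, SE 0.26, adjusted p = 2.12e-14) to Cyp4a10 (log2 fold change 13.28, SE 0.77, adjusted p = 2.17e-11). Alb gave log2 fold change 11.72, SE 0.51, adjusted p = 2.19e-15. Fold changes of genes near 0 elsewhere, such as Cyp4a10 with a mean of 0 CPM in gastrocnemius, depend on the fit's prior count. Of the wide-ranging genes 184 were tested, 98 higher and 31 lower. A mean of 10 CPM in liver was required of them, and of all genes above it 2915 of 5888 tested were higher and 1092 lower, so nothing is read from the direction of the wide-ranging genes.

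Of the 25 genes of largest spread 21 were tested and 16 were higher in liver, under the same requirement. Saa1 gave log2 fold change 9.39, SE 0.96, adjusted p = 8.83e-09 and Mup11 log2 fold change 11.29, SE 0.70, adjusted p = 1.07e-12 by edgeR. The exception was Psap, lower in liver (log2 fold change -1.57, SE 0.52, adjusted p = 0.0113, edgeR), while Fh1 (log2 fold change 0.83, SE 0.38, adjusted p = 0.0591) and Atp5j (log2 fold change -0.81, SE 0.46, adjusted p = 0.125) did not pass the threshold, nor did Ndufa1 and Slc8a1 (adjusted p = 0.102 and 0.412). The lists of hepatocyte, plasma protein, bile acid, urea cycle and Mup genes were higher in liver in 11 of 11, 24 of 24, 11 of 11, 15 of 15 and 16 of 16 genes tested. The adipocyte list was lower in liver in 7 of 7. Over all genes tested 31.7% were higher and 32.3% lower. These lists were drawn up as genes of liver or of fat, so their direction was fixed in advance and nothing is read from it. Other lists were mixed, such as glucocorticoid targets, with 3 of 11 higher and 7 lower. With library totals in place of TMM, under which the median log2 fold change of all genes was -0.49, 2350 genes were higher and 5160 lower.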

How the data were processed

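QuantSeq 3′ FWD libraries of liver, eWAT and gastrocnemius RNA were sequenced by the authors. The authors trimmed reads with BBDuk, aligned them to the mouse genome GRCm38 with STAR and counted them per gene with featureCounts, and the deposited values are raw counts. Tool versions, strand and multi-mapping settings are not given in the sources used here. The count columns carry sequencing numbers only, so each tissue formed 1 group of 6 libraries. A further 18 columns of per-sample values were not used. Pairs of libraries were checked for copies by a chi-square test over genes with at least 20 counts. Of 54838 gene identifiers, 54723 matched a symbol.

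CPM were computed from the counts and scaled by TMM (edgeR 4.0.16 in R 4.3.3, prior count 2) for log2 values. The spread of a gene was its SD and its range over the 6 libraries, with 4-fold called wide, among genes with a mean of at least 10 CPM. Expected counting SDs were Poisson. Shares of counts were compared between tissues by two-sided exact permutation tests (924 divisions of 6 against 6). Liver was compared with the other tissues by edgeR's quasi-likelihood test after filterByExpr (minimum count 10), with Benjamini-Hochberg adjustment at 0.05. Files were read in Python 3.11.15 with pandas 2.3.3, numpy 2.4.6 and scipy 1.17.1, and promoter sequences with Biopython 1.88.

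Named genes were the 15 most abundant nuclear genes and the mtDNA genes, the 25 of largest SD above 10 CPM, the 10 of largest and 5 of smallest SD above 200 CPM, and in each list the 3 of largest and the 1 of smallest range, with defining markers at 0. Not all are printed, and some genes that the rule names are not reported here. The members and lists were chosen with earlier results of these data known. DESeq2 1.42.0, other scalings, prior counts, filters and left-out libraries were alternatives, and removing the GC trend was added after seeing the data. The spread measure and the edgeR fit were tested on simulated data. Total counts per liver library, which set the counting precision, are given with the results.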

Additional observations from a re-analysis of the deposited data

Results flagged for a closer look

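In 7 of the 164 named genes the highest or lowest liver library lay so far from the next that the gap as a share of the whole range exceeded Dixon's critical value for 6 samples. Chance alone gives about 1 in 20 such groups, and over all described genes 294 of 5897 did so, 4.99%. Library 15 was low for Mup11 (0.638), Mup12 (0.858) and Glul (0.664). Library 24 was low for Arntl (0.638) and Manf (0.756), library 23 for Ecm1 (0.642), an extracellular matrix protein of stellate cells with 36, 38, 34.2, 35.4, 24.8 and 40.8 CPM, and library 14 for Rps9 (0.630). In eWAT, library 17 had a low share of counts in the 10 most abundant nuclear genes, with a ratio of 0.805.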

How the results depend on the processing

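The mtDNA shares differed in the same direction and past the threshold under all alternatives run. Against eWAT the difference was 7.0 to 8.06 percentage points on leaving out each library in turn, and 3.31 (p = 0.0130, exact permutation test) with the mitochondrial rRNAs left out and 10.3 with the 10 most abundant nuclear genes out of the total. Against gastrocnemius the matching values were -14.6 to -11.4, -13.6 and -16 points. The share in the 10 most abundant nuclear genes stayed above that of eWAT by 3.01 to 4.55 points on leaving out each library, and by 7.25 and 7.33 points with the 50 most abundant genes and with nuclear counts as the denominator. Against gastrocnemius it was -0.164 points, and leaving out each library gave -1.21 to 0.707, the 50 most abundant genes 2.91 (p = 0.234, exact permutation test) and nuclear counts as the denominator -5.14 (p = 0.0260). The cause was not tested, and the share was not computed without Gm42418.

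The count of genes with a 4-fold range, 193, was 46 at a mean of at least 50 CPM and 1828 with no minimum, where fewer or more genes enter, and 103 to 175 on leaving out each library, the lowest without library 24. Other scalings, a prior count of 0.5, leaving out mtDNA genes and removing GC gave 164 to 256. Removing GC, chosen after seeing the data, brought 9 named genes under 4-fold: besides Cps1, Cth and Acaa1b they were Col1a2, Arntl, Nr1d1, Rpl31-ps8, Rpl27a-ps2 and Ndufb1-ps, at 3.90-fold, 3.43-fold, 3.93-fold, 3.93-fold, 3.17-fold and 3.77-fold. Selenbp2 rose past it at 4.27-fold, as with library totals and a prior count of 0.5. Some list scores moved with 1 library: the score range of the major urinary protein genes was 0.89 on the log2 scale without library 15, and that of the PPARalpha targets 0.43 without library 24.

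The edgeR count, 6946, was 6861 to 7161 on leaving out each library, 7099 by DESeq2 and 8442 without the filter. No paired analysis was possible because the column names carry no replicate number of the labels, and the replicate block was not run. A gene listed at 0 may hold up to 3 counts, so that differences among genes near 10 CPM rest on few counts.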
